A study of Mus musculus with 2 samples.

Results

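Dermal mast cells were taken from single-cell RNA sequencing of mouse dorsal skin as the cells with at least 5 unique molecular identifiers (UMIs, each standing for 1 captured transcript) summed over the mast cell protease genes Cma1, Mcpt4, Tpsb2 and Cpa3. Members also had fewer than 3 UMIs of the basophil protease gene Mcpt8, at least 200 detected genes and at most 10% mitochondrial UMIs. This rule found 71 of 18796 cells, 37 of 10297 in the library labelled Ctrl and 34 of 8499 in the library labelled IMQ-D5. Since the cells were chosen by their protease and Mcpt8 UMIs, the level of these 5 genes in mast cells relative to other cells is a description and supports nothing.

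The series set imiquimod-treated skin against control skin. Both libraries came from wild-type C57BL/6 mice aged 2 months. IMQ-D5 skin had received imiquimod, a Toll-like receptor agonist that induces psoriasis-like inflammation, on the surface each day over 5 days, and the labels say no more of the Ctrl skin than that it is the control. Cells were released with collagenase D and DNase1, dead cells were removed, and 3′ libraries were made in droplets. There is 1 library per condition, and the labels do not say how many mice went into each, so no comparison between conditions could be tested. All intervals below are exact 95% intervals of counting error only. UMIs of the same cell are not independent, and variation between mice, dissociations or libraries is in none of the intervals.

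The libraries held 10857 and 9414 barcodes with 123088680 and 144054978 UMIs. The 2 libraries shared 23 barcodes, of which 0 belonged to members. The series' text calls the mice female, but 4 Y-linked genes had 23106 UMIs in Ctrl and 20218 in IMQ-D5, against 10 and 13 UMIs of Xist, so the reads of both libraries go against that description. Y-linked UMIs were found in 14 members of each library, and Xist UMIs in 0.

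Mast cells are tissue-resident granulocytes that mature in the skin under KIT signalling and fill their granules with proteases, heparin and histamine. The connective tissue type found in dermis makes the chymases Cma1 and Mcpt4, the tryptase Tpsb2 and the carboxypeptidase Cpa3, and carries the high-affinity IgE receptor and the peptide receptor Mrgprb2. Engaged receptors release the granules and induce lipid mediators, cytokines and chemokines.

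Promoter sequence is shown for the 3 rule proteases with an entry in the RefSeq promoter table (GRCm38.p6) and for Fcer1a, which differed most between the libraries among the genes of the IgE receptor. Each run is the 250 bases before the annotated start, 5′ to 3′ on the gene's strand, which is the minus strand for all 4, and capitals mark the letters AGATAA, and likewise TGATAA, and also AGATAG, and lastly TGATAG, on either strand, the core bound by GATA factors. Cma1 lies at chr14:55944676-55944925, Mcpt4 at chr14:56062311-56062560, Cpa3 at chr3:20242182-20242431 and Fcer1a at chr1:173227230-173227479.
Cma1: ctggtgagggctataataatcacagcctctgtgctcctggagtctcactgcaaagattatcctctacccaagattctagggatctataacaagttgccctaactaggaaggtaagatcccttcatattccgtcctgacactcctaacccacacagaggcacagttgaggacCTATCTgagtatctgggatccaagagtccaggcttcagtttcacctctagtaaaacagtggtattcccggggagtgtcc
Mcpt4: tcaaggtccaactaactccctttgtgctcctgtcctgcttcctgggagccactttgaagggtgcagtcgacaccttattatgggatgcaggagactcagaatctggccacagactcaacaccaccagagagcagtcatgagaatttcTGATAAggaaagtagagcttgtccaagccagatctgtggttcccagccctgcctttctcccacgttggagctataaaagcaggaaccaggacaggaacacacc
Cpa3: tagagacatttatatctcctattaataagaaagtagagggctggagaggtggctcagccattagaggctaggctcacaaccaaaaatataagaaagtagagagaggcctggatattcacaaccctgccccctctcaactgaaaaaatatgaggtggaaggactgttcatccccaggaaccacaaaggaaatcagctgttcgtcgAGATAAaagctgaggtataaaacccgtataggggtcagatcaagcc
Fcer1a: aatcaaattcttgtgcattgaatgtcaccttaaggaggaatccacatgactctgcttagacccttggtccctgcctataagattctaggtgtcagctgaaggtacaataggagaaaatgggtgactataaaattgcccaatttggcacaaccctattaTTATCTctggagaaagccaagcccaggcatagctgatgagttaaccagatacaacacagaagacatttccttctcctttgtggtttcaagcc
Each of the 4 windows held 1 match. In Cma1 it began 79 bases before the start, in Mcpt4 103, in Cpa3 46 and in Fcer1a 92. Of 32851 windows of this length in the table, 26.5% held at least 1 match. Of the 16 mast cell markers listed for the label check, 14 had at least 1 window, and 11 of those held a match in at least 1. The 26.5% counts windows and not genes, and a gene can have several, as Kit with 2. A match is a description of letters and not of binding.

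The label held for most members. Outside the rule genes, at least 1 UMI of Kit, Ms4a2, Fcer1a or Hdc was present in all 37 Ctrl members and in 30 of 34 IMQ-D5 members. Among other cells Kit had a UMI in 0.984% of Ctrl and 2.04% of IMQ-D5, and Hdc in 0.526% and 5.58%. The joint criterion was not counted there. The 30 include a cell with 422 UMIs of neutrophil markers, which had 5 UMIs of Hdc and 0 of Kit, Ms4a2 and Fcer1a. IMQ-D5 members without any of these UMIs include cells of 684, 826 and 1195 UMIs that count as single-lineage below. The 12 mast cell markers outside the rule were all detected in each library. The protease and Mcpt8 UMIs given next chose the members, so they describe the edge of the rule and do not bear on the label. In Ctrl the rule left a wide gap at its threshold. The lowest members there had 21, 25 and 26 protease UMIs, and the highest cell outside had 3. In IMQ-D5 the lowest members had 7, 9 and 27, and 3 cells with 4 protease UMIs lay just outside. The Mcpt8 limit kept out 8 IMQ-D5 cells, whose protease UMIs were all Cpa3 (5 to 76 UMIs) and which had 3 to 326 UMIs of Mcpt8. Among all other cells, 1.24% in Ctrl (1.03% to 1.47%) and 1.43% in IMQ-D5 (1.19% to 1.71%) had any protease UMI.

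Of the 71 members, 11 were set apart as mixed by the limits given below on markers of other cell types and on the number of proteases. In Ctrl, 7 had fibroblast markers (Col1a1, Col3a1, Dcn and others) at 3.88% to 27.9% of their UMIs and 1 had pericyte markers. In IMQ-D5, 1 had fibroblast markers at 1.73%, 1 had 45 UMIs of T and natural killer cell markers, and 1 had 422 UMIs of neutrophil markers and 45 of T and natural killer cell markers. The last 2 had 9 and 7 UMIs of Cma1 and 0 of Mcpt4, Tpsb2 and Cpa3. The cell with 9 had 0.633% of its UMIs from other lineages' markers, under the limit, and was set apart by its proteases alone. Cma1 UMIs were found in 12 of 476 other IMQ-D5 cells (2.52%) and in 5 of 202 other Ctrl cells (2.48%) whose largest marker share was of T and natural killer cells, against 0.322% and 0.469% of those with mainly fibroblast markers. The 11 mixed cells held 63.0% of all UMIs of Ctrl members and 20.2% of those of IMQ-D5 members. Scrublet, a doublet caller, marked 4.10% of Ctrl and 1.29% of IMQ-D5 cells, and among members it marked 2 of the 8 mixed Ctrl cells and 0 others.

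The remaining 60 cells, 29 in Ctrl and 31 in IMQ-D5, had UMIs of at least 3 of the 4 proteases and under 1% of UMIs from other lineages' markers. They are called single-lineage mast cells below, and since this split was made after the values were seen, values over all 71 are given beside the genes and lists described where a call differs. In single-lineage cells, B cell and melanocyte markers had 0 UMIs in both libraries. Eosinophil, neutrophil, T and natural killer cell, Schwann and endothelial markers had 0 UMIs in Ctrl and 10, 14, 2, 3 and 3 in IMQ-D5. Keratinocyte markers had 7 UMIs in 7 of 29 Ctrl cells and 26 in 13 of 31 IMQ-D5 cells, and red blood cell markers 2 UMIs in 2 cells and 22 in 15. Macrophage, dendritic cell and pericyte markers had 1, 3 and 0 UMIs in Ctrl and 1 of each in IMQ-D5. Fibroblast markers had 91 UMIs in 26 of 29 Ctrl cells, at a median of 0.293% of a cell's UMIs and a highest share of 0.696%. In IMQ-D5 they had 24 UMIs in 17 of 31 cells, with a median of 0.0148% and a highest share of 0.292%. Free RNA was estimated at 2.02% in Ctrl and 1.26% in IMQ-D5, from fibroblast and keratinocyte markers in these single-lineage cells relative to other cells. These cells were kept for having under 1% of UMIs from other lineages' markers. That filter limits how high the estimate could be, and every use of it below shares this limit.

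Mast cells were rare among the cells recovered from either skin. The share was 0.359% in Ctrl (0.253% to 0.495%) and 0.400% in IMQ-D5 (0.277% to 0.559%), a ratio of 1.11 (0.678 to 1.82). Over single-lineage cells the shares were 0.282% and 0.365%, a ratio of 1.30 (0.755 to 2.23). Both intervals hold 1, so a difference in share was not detectable with this number of cells. A share of recovered cells also moves with how many other cells were released and kept.

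These cells were shallow. Single-lineage mast cells had a median of 861 UMIs in Ctrl (503 to 4978) and 1340 in IMQ-D5 (684 to 7655), against 9596 and 12650 over all cells of each library. They had a median of 583 and 698 detected genes. At least 3000 UMIs were found in 3 Ctrl cells, which held 32.6% of the group's 38418 UMIs, and in 8 IMQ-D5 cells, which held 61.8% of 75974. The deepest cell alone held 13.0% in Ctrl and 10.1% in IMQ-D5. Their medians lie far below those of their libraries, but the 10 genes highest over all other cells held mast cell markers outside the rule, 5 in Ctrl (Mrgprb1, Ms4a2, Cyp11a1, Hdc and Slc18a2) and 3 in IMQ-D5 (Mrgprb1, Mrgprb2 and Tpsab1).

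**Figure D1:**
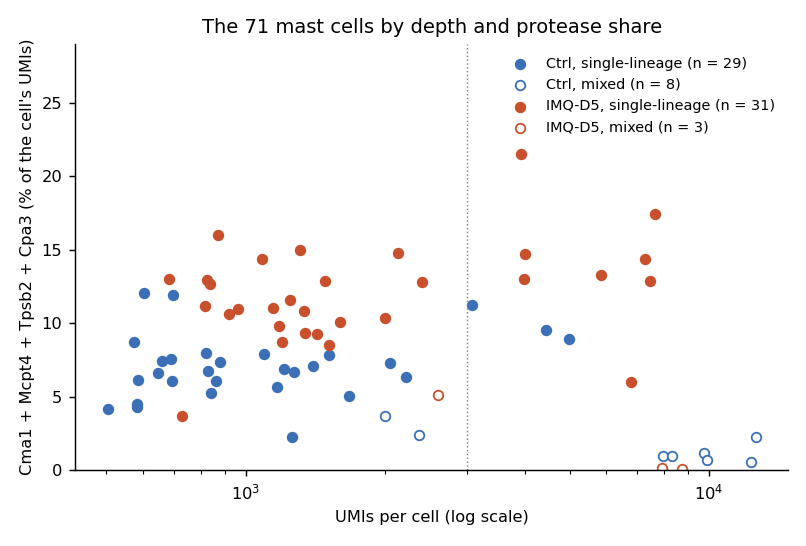
Each point is 1 of the 71 mast cells, placed by its UMIs (x axis, log scale) and by the summed share of Cma1, Mcpt4, Tpsb2 and Cpa3 among its UMIs (y axis, percent). Filled points are single-lineage cells (29 Ctrl, 31 IMQ-D5) and open points mixed cells (8 and 3), and the dotted line marks 3000 UMIs. Filled IMQ-D5 points lie mostly above filled Ctrl points on either side of the line, and 7 of the 8 open Ctrl points carry fibroblast markers.

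Granule proteases took a larger part of the transcripts of IMQ-D5 mast cells. In single-lineage cells the 4 rule proteases together made up a median of 6.85% of a cell's UMIs in Ctrl (2.23% to 12.1%) and 12.6% in IMQ-D5 (3.70% to 21.5%). Of 31 IMQ-D5 cells, 29 were above the Ctrl median and 16 above the highest Ctrl cell, and 0 of 29 Ctrl cells were above the IMQ-D5 median. The ratio of the medians was 1.84, and 1.64 among cells under 3000 UMIs. These genes chose the members, so their shares are a description.

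Cma1, a chymase, had the widest distance between the medians of the 4. It made up a median of 2.22% of UMIs per Ctrl cell (0.717% to 8.32%) and 5.70% per IMQ-D5 cell (1.46% to 9.68%), and 29 of 31 IMQ-D5 cells exceeded the Ctrl median while 1 of 29 Ctrl cells exceeded the IMQ-D5 median. Summed over cells, Cma1 stood at 25535 CPM (UMIs of the gene per 1000000 UMIs summed over the cells) in Ctrl and 45805 in IMQ-D5, 1.79-fold higher (1.67 to 1.93). Mcpt4, the other dermal chymase, overlapped widely, with medians of 2.64% (1.04% to 6.79%) and 3.06% (0.900% to 10.1%). Its summed level was 28502 and 44384 CPM, 1.56-fold higher (1.45 to 1.67). The share of Cma1 in the chymase UMIs of a cell had a median of 41.2% in Ctrl (18% to 86.6%) and 61.5% in IMQ-D5 (25.3% to 90.8%). This distance lay in the shallow cells. Below 3000 UMIs the medians were 41.0% over 26 Ctrl cells and 65.6% over 23 IMQ-D5 cells, while in deeper cells they were 43.9% over 3 Ctrl cells (36.2% to 67.9%) and 37.9% over 8 IMQ-D5 cells (33.9% to 63.4%).

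Tpsb2, a tryptase, had a median of 0.537% in Ctrl and 0.813% in IMQ-D5, and cells with 0 UMIs were found in both libraries (3 of 29 and 2 of 31). Cpa3, the carboxypeptidase that trims peptides cut by chymase, had medians of 1.1% (0.172% to 2.38%) and 1.82% (0.525% to 4.11%). Summed levels were 1.59-fold higher for Tpsb2 (1.42 to 1.79) and 1.83-fold higher for Cpa3 (1.66 to 2.03). None of the 4 passed the 2-fold limit used here to call a gene, which also asks for at least 20 UMIs over both libraries and a counting interval that excludes 1. In the full set of 71 each of the 4 did, with ratios of 3.11 for Cma1, 2.64 for Mcpt4, 2.61 for Tpsb2 and 3.23 for Cpa3. The 8 mixed Ctrl cells, 7 of them with fibroblast markers at 3.88% or more, held 63.0% of all UMIs by which these Ctrl levels were divided. Of the 3751 protease UMIs of Ctrl members they held 815.

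**Figure D2:**
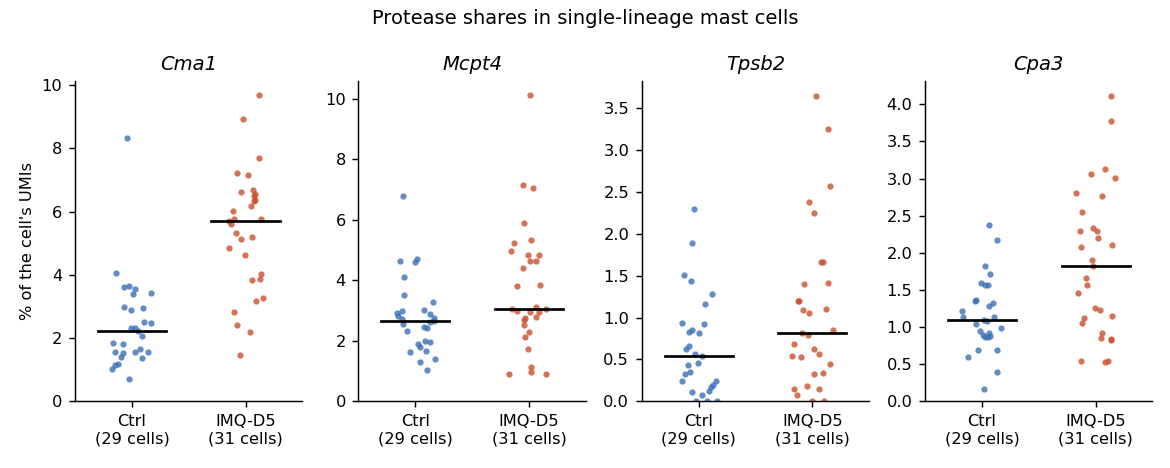
Each point is a single-lineage mast cell (29 Ctrl, 31 IMQ-D5) and the y axes give the gene's share of the cell's UMIs in percent, on a scale of its own for each gene. Bars mark medians, and the 2 libraries are farthest apart for Cma1 (2.22% and 5.70%), while 7 of 29 Ctrl cells lie above the IMQ-D5 median for Mcpt4 and 11 of 29 for Tpsb2.

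The other proteases were sparse, with 1 of 3 measured genes called, against 10.9% of 868 genes over all genes measured in single-lineage cells. Tpsab1, a tryptase near Tpsb2 on chromosome 17, had 9 UMIs in 5 Ctrl cells and 41 in 10 IMQ-D5 cells, of which 14 were in 1 cell. Tpsab1 was called higher at 2.30-fold (1.1 to 5.39). With mixed cells included it was 2.79-fold higher, and Gzmb, a granzyme also made by T and natural killer cells, was called as well, with 0 UMIs in Ctrl and 29 in IMQ-D5. Tpsg1, a membrane-bound tryptase, had 21 UMIs in 14 cells and 36 in 13 cells, but 20 of the 36 came from 1 cell. Prss34, a protease more typical of basophils, had 8 UMIs in 3 Ctrl cells and 14 in 2 IMQ-D5 cells, of which 13 were in 1 cell. Tpsb2 with Tpsab1, and the chymases of chromosome 14, are close relatives, and how reads that fit several of them were assigned is not given in the sources used here.

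Across all genes of single-lineage cells, 868 had enough UMIs and 10.9% of them were called, 3.0% higher and 7.95% lower in IMQ-D5. Over all 71 members 1531 genes were measured and 20.4% were called, 9.01% higher and 11.4% lower. These shares are the background for every count below. In 71 cells the 12 genes lowest in IMQ-D5 by the rule for named genes were Col1a1, Col1a2, Col3a1, Sparc and 8 other genes that fibroblasts express, and 99.2% of their Ctrl UMIs lay in mixed cells, so counts over 60 cells lead from here.

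The IgE receptor stood out by its ligand-binding chain. Fcer1a, which encodes the alpha chain that binds IgE, had 5 UMIs in 4 of 29 Ctrl cells, with at most 2 in a cell. In IMQ-D5 it had 92 UMIs in 17 of 31 cells, of which 7 had 5 or more and the highest had 18. Its level was 130.1 CPM in Ctrl (42.3 to 304) and 1211 in IMQ-D5 (976 to 1485), 9.30-fold higher (3.85 to 29.3), and 11.3-fold over all 71 cells. When every cell was thinned to 500 UMIs, 1.72 of 29 Ctrl cells (5.94%) and 10.4 of 31 IMQ-D5 cells (33.4%) were expected to keep a Fcer1a UMI. Other cells had a Fcer1a UMI in 0.0195% of Ctrl and 0.343% of IMQ-D5 cases, at median depths of 9613.5 and 12703 UMIs.

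The receptor's other chains had ratios whose intervals hold 1. Ms4a2, the beta chain, had 28 UMIs in 17 Ctrl cells and 39 in 16 IMQ-D5 cells, or 729 and 513 CPM, a ratio of 0.704 (0.422 to 1.19). Fcer1g, the signalling gamma chain, had 127 and 258 UMIs in 27 and 28 cells, or 3306 and 3396 CPM, a ratio of 1.03 (0.827 to 1.28). The intervals of both lie wholly below that of Fcer1a. In all 71 Fcer1g was called higher at 2.16-fold, and without the cells at 2% or more of other markers its log2 ratio was -0.048. Of 8 measured genes of the IgE receptor list, which also holds the kinases and adaptors below the receptor, 1 was called higher (Fcer1a) and 1 lower (Rgs1), and the list's median log2 ratio was -0.16 against -0.11 over all genes. Rgs1, a brake on G protein signalling, had 103 UMIs in 20 Ctrl cells and 99 in 24 IMQ-D5 cells, or 2681 and 1303 CPM, 2.06-fold lower (1.55 to 2.74), and its ratio of 0.849 over all 71 cells was not called.

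**Figure D3:**
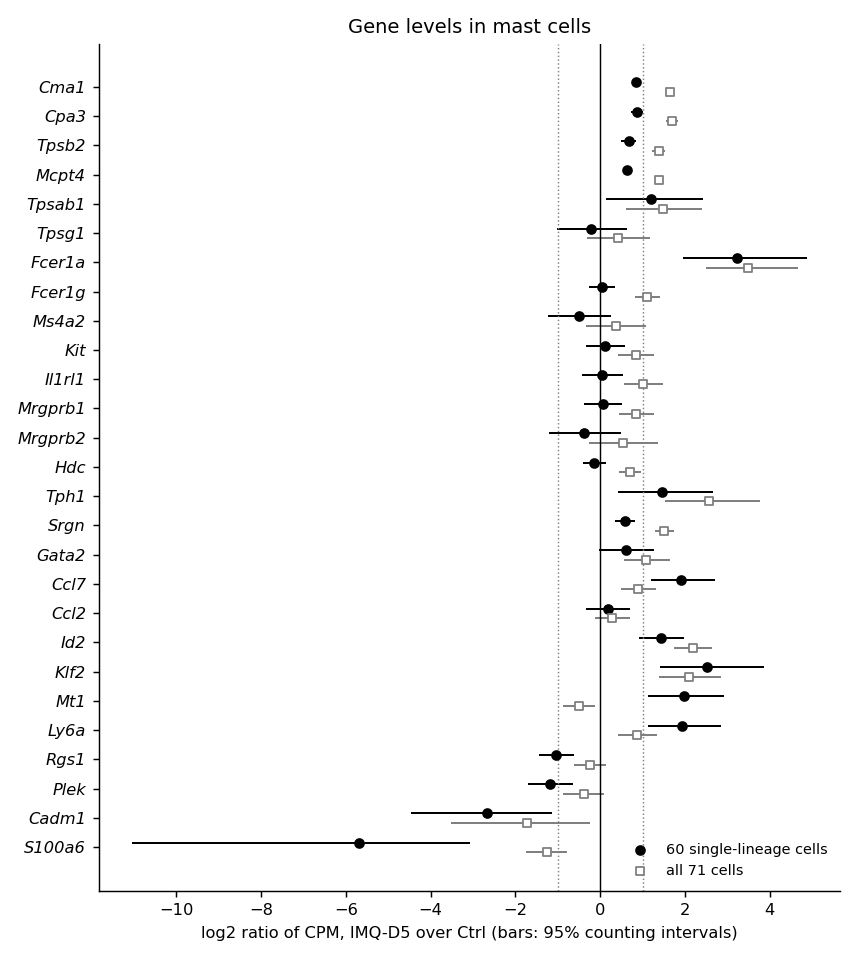
Points give the log2 ratio of CPM in IMQ-D5 over Ctrl for 27 genes, with 95% counting intervals as bars, filled for the 60 single-lineage cells and open for all 71. Dotted lines mark a 2-fold difference. Fcer1a lies far to the right in both sets, Kit, Il1rl1, Mrgprb1 and Fcer1g lie near 0 in the filled set, and Mt1 changes side between the sets.

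For KIT and other receptors of resident mast cells no 2-fold difference was called. Kit, the stem cell factor receptor on which mast cells depend, had 59 UMIs in 21 Ctrl cells and 127 in 24 IMQ-D5 cells, or 1536 and 1672 CPM, a ratio of 1.09 (0.793 to 1.51). Il1rl1, the receptor of interleukin-33, had 1458 and 1501 CPM, a ratio of 1.03 (0.741 to 1.44), although it was found in only 13 of 29 and 18 of 31 cells. Mrgprb1, a receptor of the Mas-related family, had 64 and 132 UMIs in 25 and 27 cells, a ratio of 1.04 (0.768 to 1.43). Its relative Mrgprb2, the receptor for basic peptides and many drugs, had 21 and 32 UMIs, a ratio of 0.771 (0.431 to 1.41). Of 5 measured genes of the growth factor receptor list and 3 of the list of other activating receptors, 0 were called. In all 71 Il1rl1 was called higher at 2.02-fold and Csf2rb2, a cytokine receptor subunit, at 3.27-fold.

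Amine and granule matrix genes differed only in part. Hdc, the enzyme that makes histamine, had 168 UMIs in 24 Ctrl cells and 302 in 24 IMQ-D5 cells, or 4373 and 3975 CPM, a ratio of 0.909 (0.750 to 1.1). Tph1, the enzyme that starts serotonin synthesis, had 9 UMIs in 6 Ctrl cells and 49 in 12 IMQ-D5 cells, 2.75-fold higher (1.34 to 6.37), with 22 of the 49 in 1 cell. Srgn, the granule proteoglycan core that holds proteases and heparin, had 5024 and 7489 CPM, 1.49-fold higher (1.26 to 1.76) and below the 2-fold limit, while in all 71 it was called at 2.86-fold. Slc18a2, which loads amines into granules, had 20 and 32 UMIs, a ratio of 0.809 (0.449 to 1.49). In this list 1 of 10 measured genes was called higher, 0 lower, and its median log2 ratio was 0.33. In all 71, 5 of 10 were called higher (Srgn, Tph1, Hs3st1, Slc6a4 and Ndst2), at a list median of 1.09 against 0.12 over all genes.

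Enzymes and membrane proteins of granules and lysosomes had a list median of 0.83, against -0.11 over all genes, with 0 of 6 called. Ctsd, a lysosomal protease, had 33 UMIs in 16 Ctrl cells and 127 in 25 IMQ-D5 cells, a ratio of 1.95 (1.32 to 2.95). Cd63, a granule membrane protein that reaches the surface on degranulation, had 31 UMIs in 16 cells and 110 in 23, a ratio of 1.79 (1.20 to 2.77). Serpinb1a, an inhibitor of chymotrypsin-like proteases, had 3279.7 and 4686 CPM, a ratio of 1.43 (1.16 to 1.76). Over all 71 cells 3 of 11 were called higher, Serpinb1a among them, and 2 lower (Ctsb and Ctsl).

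Among cytokine and chemokine genes Ccl7, a monocyte attractant, was called higher. It had 18 UMIs in 5 of 29 Ctrl cells, of which 10 were in 1 cell, and 134 in 13 of 31 IMQ-D5 cells, of which 10 had 5 or more. The summed level was 468.5 and 1764 CPM, 3.76-fold higher (2.29 to 6.55). Averaged over cells rather than UMIs, the levels were 360.9 and 3436 CPM. Other cells of the libraries also held Ccl7, at 889 and 795 CPM, and free RNA of it was estimated at 18 and 10.1 CPM in mast cells. The high cells of IMQ-D5 were mostly shallow, with 3789 CPM below 3000 UMIs and 511 CPM in the deeper cells. In Ctrl these levels were 270.2 and 879 CPM, but the deeper set is 3 cells, and 1 of them held the 10 UMIs given above. Ccl7 was thus higher in IMQ-D5 among shallow cells, while the comparison of deep cells rests on that 1 Ctrl cell. Including mixed cells the ratio was 1.85 and not called. Ccl2, its close relative, had 47 UMIs in 16 cells and 105 in 26 cells, a ratio of 1.13 (0.794 to 1.63). Tnf had 12 and 30 UMIs, a ratio of 1.26 (0.629 to 2.71), and Il4 had 14 and 19, a ratio of 0.686 (0.326 to 1.48). Of 37 listed genes 5 were measured and 1 was called. Over all 71 cells 5 of 12 were called higher (Ccl3, Ccl4, Ccl5, Cxcl2 and Il1b) and 2 lower (Csf1 and Cxcl1). In IMQ-D5 Ccl5 had 388 UMIs, Cxcl2 70 and Il1b 21, and single-lineage cells had 0 UMIs of each of these 3. Csf1, the macrophage growth factor, had 14 UMIs in 9 Ctrl cells and 4 in 4 IMQ-D5 cells, which is under the 20 UMIs asked for. With the mixed cells it had 36 and 4 UMIs and was called 8.26-fold lower (2.96 to 31.9).

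**Figure D4:**
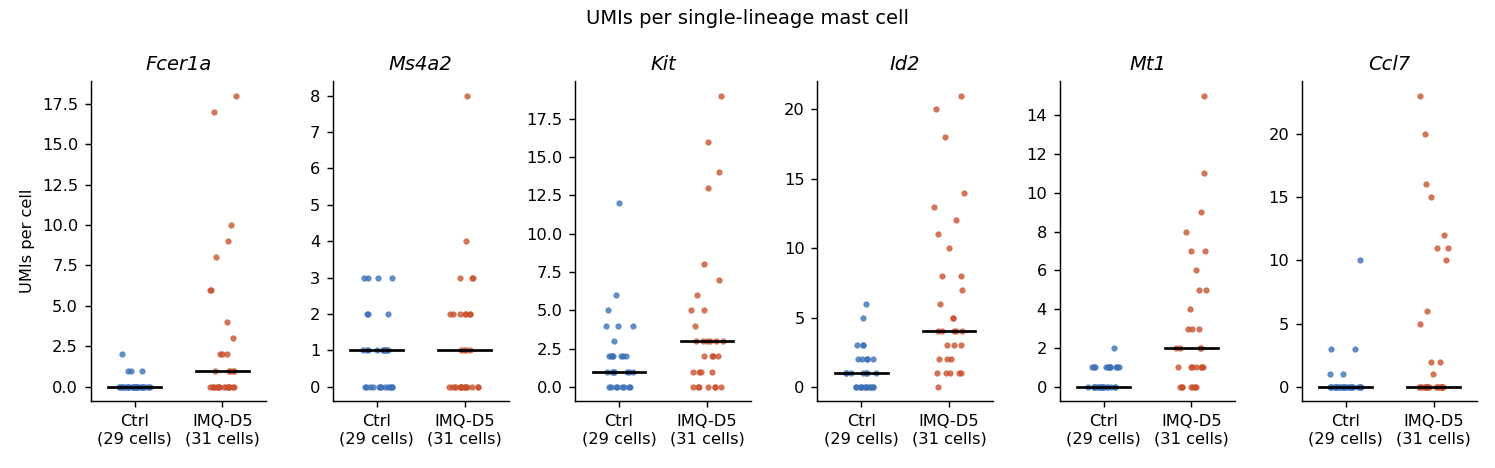
UMIs of 6 genes in each single-lineage mast cell (29 Ctrl, 31 IMQ-D5), with bars at the medians and a y axis for each gene. Fcer1a, Id2, Mt1 and Ccl7 reach 18, 21, 15 and 23 UMIs in IMQ-D5 cells against 2, 6, 2 and 10 in Ctrl cells, while most cells of both libraries have few UMIs of Ms4a2 and Kit. IMQ-D5 cells are deeper, with a median of 1340 UMIs against 861.

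Regulators and stress-inducible genes were among the other higher calls. Id2, an inhibitor of helix-loop-helix transcription factors, had 37 UMIs in 17 of 29 Ctrl cells and 198 in 30 of 31 IMQ-D5 cells, or 963 and 2606 CPM, 2.71-fold higher (1.90 to 3.96). Klf2, a zinc finger factor linked to quiescence, had 7 UMIs in 4 cells and 79 in 19 cells, 5.71-fold higher (2.64 to 14.7). Mt1, a metal-binding metallothionein, had 13 UMIs in 12 cells and 101 in 24 cells, 3.93-fold higher (2.20 to 7.63). Over all 71 cells Id2 was 4.53-fold and Klf2 4.25-fold higher, but Mt1 had a ratio of 0.705. Of its 156 UMIs in the 37 Ctrl members, 13 were in the 29 single-lineage cells.

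The surface protein gene Ly6a, inducible by interferon, had 14 UMIs in 10 cells and 106 in 23 cells, 3.83-fold higher (2.18 to 7.24), and 1.84-fold over all 71 cells. Hsp90b1, a chaperone of the endoplasmic reticulum, had 6 and 42 UMIs in 5 and 18 cells, 3.54-fold higher (1.5 to 10.2), and 1.27-fold over all 71 cells. Stmn1, a microtubule regulator often raised in dividing cells, had 5 and 35 UMIs in 4 and 13 cells, 3.54-fold higher (1.38 to 11.6), and was the 1 call among 4 measured cell cycle genes, while Hmgb2 was called as well in all 71. Ctla2a, a cathepsin inhibitor, had 7 and 44 UMIs, 3.18-fold higher (1.42 to 8.36), and 1.16-fold over all 71 cells.

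Other cells held Mt1 at 2474 and 2548 CPM and Ly6a at 925 and 990 CPM, above their level in mast cells of Ctrl. Immediate early genes, which tissue dissociation also induces, were abundant in both libraries. Jun stood at 8199 and 9411 CPM, a ratio of 1.15 (1.0 to 1.31), and Fos at 5206 and 7002, a ratio of 1.35 (1.14 to 1.59). Egr1 had 204 and 295 UMIs, a ratio of 0.731 (0.610 to 0.878), and the heat shock gene Hspa1a had 213 and 215, a ratio of 0.510 (0.420 to 0.620). Of 25 measured genes of this list 3 were called higher, Ier2 at 2.27-fold (1.62 to 3.24), Gadd45b at 2.80-fold (1.54 to 5.51) and Klf2, and 0 lower. The list's median was 0.20. In all 71, 5 of 28 were called higher (Ier3 and Nr4a1 beside these 3) and 2 lower (Atf3 and Klf4). The part of dissociation in these values was not tested.

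The lineage factors that maintain mast cells were measured with few UMIs. Gata2 had 29 UMIs in 15 Ctrl cells and 87 in 16 IMQ-D5 cells, a ratio of 1.52 (0.986 to 2.40), and as a mean over cells it was 766 and 614 CPM, so its direction rested on the deep cells. Of 9 measured factors 0 were called higher and 1 lower, Lmo4, which had 12 and 9 UMIs. With mixed cells included, Gata2, Meis2, Ikzf1 and Tal1 were called higher. Of the NF-kB feedback list 1 of 6 was called, the subunit gene Rel, which was 2.07-fold lower (1.1 to 3.89), and in all 71 it was 0 of 7. Of 2 measured interferon-stimulated genes, 2 lipid mediator genes, 2 survival genes, 2 exocytosis genes, 4 inhibitory receptors and 5 glycolysis genes, 0 were called. Of these B2m, the light chain of class I molecules, had 1432 and 2475 CPM, a ratio of 1.73 (1.27 to 2.38). Cd200r3, an inhibitory receptor, had 19 UMIs in 12 Ctrl cells and 56 in 21 IMQ-D5 cells, a ratio of 1.49 (0.872 to 2.66). With mixed cells included, several genes of these lists were called. B2m was 2.58-fold and Cd200r3 2.65-fold higher, as were Stx3 of the exocytosis list at 3.49-fold and the lipid mediator genes Hpgds at 2.26-fold and Pla2g7 at 3.99-fold. Ifitm1 (0 and 70 UMIs, of which 69 were in 1 cell) was called higher, and Ifitm3 (50 and 4 UMIs) and the prostaglandin synthase gene Ptgs2 (27 and 1 UMIs) lower. The survival and glycolysis lists had 0 calls among 4 and 8 genes.

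More genes were called lower than higher in IMQ-D5 single-lineage cells, 69 against 26. The summed UMIs behind these calls were unequal, 75974 in IMQ-D5 and 38418 in Ctrl. Among cells under 3000 UMIs 38 were lower and 32 higher, and 15 of the 69 kept their call. The part of depth in the counts was not tested. The 12 named by size and number of cells were Spty2d1, Kdm6b, Ddx3x, Fbxo33, Sat1, Ddx3y, Plek, Rgs1, Atf4, Hsph1, Elf1 and Ythdc1. Plek, a platelet and leukocyte signalling protein, had 65 UMIs in 18 cells and 57 in 18 cells, or 1692 and 750.3 CPM, 2.26-fold lower (1.56 to 3.28). Sat1, which breaks down polyamines, had 49 UMIs in 22 cells and 36 in 17 cells, 2.69-fold lower (1.72 to 4.26). Ddx3x, an RNA helicase, had 36 and 23 UMIs, 3.10-fold lower (1.78 to 5.47). Kdm6b, a histone demethylase, had 22 UMIs in 10 cells and 10 in 7 cells, 4.35-fold lower (1.98 to 10.3). Over all 71 cells Ddx3x and Kdm6b were still called lower, while Plek had a ratio of 0.766 and Sat1 0.531.

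Cadm1, an adhesion molecule by which mast cells bind fibroblasts and nerves, had 16 UMIs in 12 Ctrl cells and 5 in 4 IMQ-D5 cells, 6.33-fold lower (2.22 to 22.1), and was also called lower over all 71 cells. It was the 1 call among 4 measured trafficking and adhesion genes, and with mixed cells Itga4 and Selplg were called higher and Cd34 lower as well. No cell had more than 2 of these UMIs. S100a6, a calcium-binding protein, had 26 UMIs in 7 Ctrl cells, 9 of them in 1 cell, and 1 UMI in IMQ-D5, a ratio of 0.0194 (0.000474 to 0.118). Col1a1, Col1a2 and Col3a1 were also called lower in single-lineage cells, with 23, 27 and 16 UMIs in Ctrl and 3, 6 and 6 in IMQ-D5. These collagen genes are themselves among the fibroblast markers counted above, so their counts are part of that share. The part of fibroblast transcripts in the S100a6 value was not tested.

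Of the 26 genes called higher in single-lineage cells, 12 were called under each of 6 further settings, and of the 69 called lower, 9 were. The settings left the 4 proteases out of the total, centred the ratios, averaged over cells, subtracted free RNA, left out the top cell of each gene or left out cells of 3000 UMIs or more. The 12 were Fcer1a, Klf2, Ccl7, Mt1, Ly6a, Id2, Stmn1, Hsp90b1, Cd55, Cyb5a, Rpsa and Gnb2l1, and the 9 were Ddx3x, Sat1, Plek, Gfpt1, Hnrnph1, S100a10, Sqstm1, Wsb1 and Ywhae. Rgs1 was called under 3 of the 6 and lost its call when the proteases were left out or the ratios were centred, and Tpsab1 was called under 3 and Tph1 under 4. Of all calls in single-lineage cells 27.4% were higher, against 38.1% without the proteases in the total and 41.7% after centring.

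Cells of 3000 UMIs or more were compared with shallower ones within each library. Of 290 genes with at least 20 UMIs in each library, 14 were called higher and 52 lower in the deeper cells of Ctrl, and 19 and 57 in those of IMQ-D5. In both libraries 8 were higher (2.76%) and 26 lower (8.97%), and 0 were called in opposite directions. Tpsb2 was 3.7-fold higher in Ctrl and 2.69-fold in IMQ-D5, Hdc 2.51-fold and 2.26-fold, and Junb 2.89-fold and 3.75-fold, and the others were Malat1, Hspa1a, Hsph1, Fam46a and Ier3. Of the 26 lower genes 22 encode ribosomal proteins, such as Rps4x (6.76-fold and 2.90-fold lower), against 69 of all 290 (23.8%), and the others were Fth1, Ppia, Naca and Serf2. Not all genes moved alike, since Egr1 in deep over shallow cells had a ratio of 0.537 in Ctrl (0.373 to 0.758) and 1.95 in IMQ-D5 (1.49 to 2.59). Cma1 stood at 30845 CPM in deep and 22969 in shallow Ctrl cells, but at 36792 and 60375 in IMQ-D5. The deep set is 3 cells in Ctrl, and the limit of 3000 UMIs was set after the values were seen.

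**Figure D5:**
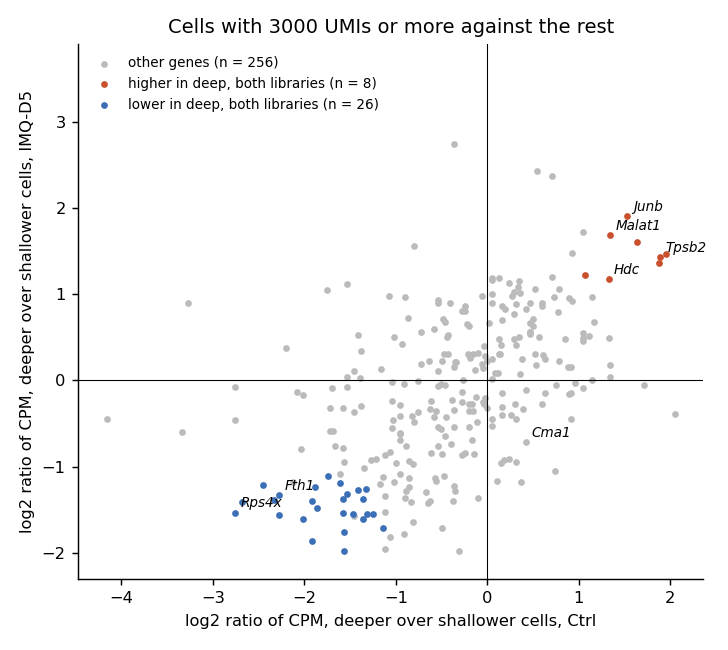
Each point is 1 of 290 genes, with the log2 ratio of CPM in cells of at least 3000 UMIs over shallower cells in Ctrl (x axis, 3 against 26 cells) and in IMQ-D5 (y axis, 8 against 23 cells). Red marks the 8 genes at least 2-fold higher and blue the 26 at least 2-fold lower in both, with counting intervals that exclude 1.

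Basophils, the nearest cell type, were far fewer in Ctrl. Cells with at least 3 UMIs of Mcpt8 numbered 4 in Ctrl and 50 in IMQ-D5. The 71 mast cells, which were chosen for fewer than 3 UMIs of Mcpt8, had 0. Some genes outside both rules separated the groups in IMQ-D5, and others did not. Kit had 127 UMIs in single-lineage mast cells and 2 in basophils, and Mrgprb1 132 and 0. Ifitm1, an interferon-inducible basophil marker here, had 0 UMIs in single-lineage mast cells and 1973 in basophils. Prss34 was also higher in basophils, at 184 CPM in mast cells and 2426 in basophils. Hdc was at a similar level in both, 3975 and 3736 CPM, as was Gata2 at 1145 and 1102. Other listed basophil markers were higher in mast cells. Cd200r3 had 737 CPM in mast cells and 324 in basophils, Cyp11a1 1316 and 702, and Ms4a2 513 and 279, the last 2 being listed for both cell types. The IgE receptor alpha chain gene Fcer1a was higher in IMQ-D5 mast cells (1211 CPM, 976 to 1485) than in IMQ-D5 basophils (265 CPM, 214 to 324). A UMI of it was found in 17 of 31 mast cells and 27 of 50 basophils, and 7 mast cells held 74 of their 92 UMIs. In Ctrl both groups stood at 130 CPM, from 5 UMIs in mast cells and 2 in basophils.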

How the data were processed

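Droplet data of both libraries were analysed from the raw UMI counts per gene and cell that the authors deposited. Per the file headers the matrices were written by Cell Ranger 5.0.0, while the submitters' processing notes list Cell Ranger 3.0.2, Seurat 2.0 and the build mm10. No barcode had fewer than 500 UMIs. The members, the gene lists and the split into single-lineage and mixed cells were chosen with earlier results of these data known. Counts were summed over the mast cells of each library and divided by the summed UMIs (CPM). Exact 95% Poisson, Clopper-Pearson and conditional binomial intervals cover counting error only. A gene was called with at least 20 UMIs over both libraries, a 2-fold ratio and an interval excluding 1. With 1 library per condition there was no test. Named genes were the rule proteases, Kit and Mcpt8, members of the 19 lists that were called or had most UMIs, the 12 highest and 12 lowest called genes with at least 30 UMIs in both libraries together and UMIs in at least 6 cells that kept 2-fold without their top cell and stood 3 times above free RNA, and the 15 genes highest over other cells. Of 391 listed genes 2 were not found. Doublets were marked with Scrublet but kept. The share of free RNA was estimated from fibroblast and keratinocyte markers in single-lineage cells. Those cells were chosen for few such markers, so the estimate is limited from above by that choice. Scripts were tested on simulated data. Software was Python 3.11.15, numpy 2.4.6, pandas 2.3.3, scipy 1.17.1, scanpy 1.11.5 and matplotlib 3.10.9.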

Additional observations from a re-analysis of the deposited data

How the results depend on the processing

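The mast cell share ratio ran from 0.982 to 1.42 over its alternatives, and the ratio of median protease shares from 1.64 to 2.00. Counts of genes depended on which cells were kept. Over all 71 cells 138 genes were higher and 175 lower, and 48 list members were called. With proteases at 1% or more of a cell's UMIs these were 54, 82 and 27, and without cells at 2% or more of other lineages' markers 35, 71 and 16. Averaging over cells gave 86 higher, leaving out each gene's top cell gave 107 lower, and members with at least 3 protease UMIs gave 264 lower. A minimum of 10 UMIs gave 214 higher and 286 lower, a minimum of 50 gave 56, 58 and 27 list members, and no minimum 262 and 348. A 3-fold limit left 59 higher and 28 list members. Single-lineage cells gave 26, 69 and 12. Within them the counts were 32, 52 and 12 without proteases in the total, 35, 49 and 12 after centring, 28, 70 and 10 as means over cells, 27, 66 and 12 with free RNA subtracted, 28, 46 and 9 without each gene's top cell, and 32, 38 and 12 under 3000 UMIs. Over 71 cells 44.1% of calls were higher, 51.7% without proteases in the total and 35.7% after centring. The cause of these shifts was not tested.

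Log2 ratios changed sign in a few named genes. Fcer1g was at -0.048 and Il1rl1 at -0.059 without cells at 2% or more of other markers. Gata2 was at -0.24 as a mean over all cells, at -0.32 as a mean over single-lineage cells and at -1.08 under 3000 UMIs. Over single-lineage means Ikzf1 was at -0.25 and Meis2 at -0.13, and Meis2 was at -0.058 under 3000 UMIs. Hmgb2 was at -0.0068 without its top cell. Ptgs2 was at 1.14 with members of at least 3 protease UMIs. The cause was not tested. No paired analysis was possible because each condition has 1 library. Depth limits the rest: genes with under 20 UMIs over both libraries were not compared.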

Other observations

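Mrgprb2, the peptide receptor of connective tissue mast cells, also had UMIs outside them in 1 library. Other Ctrl cells held 118 UMIs, of which 105 lay in 83 of 1600 cells with mainly keratinocyte markers (5.19%, 4.15% to 6.39%). These 83 cells had a mean of 39014 UMIs. Fibroblast-marker cells of Ctrl held 13 UMIs in 9 of 7672 cells. In IMQ-D5, 0 of 2127 cells with mainly keratinocyte markers had a UMI, with an upper limit of 0.173%, and all 8465 other cells had 0. Mrgprb1 had 0 UMIs outside mast cells in both libraries. How reads shared by the closely related Mrgprb genes were assigned is not given in the sources used here.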
